A study of Mus musculus with 16 samples.

Results

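The Hox genes analysed here were taken from the deposited table by symbol, as Hoxa, Hoxb, Hoxc or Hoxd followed by a number, which 40 of its 22375 Ensembl identifiers carried. The 39 identifiers described have 38 symbols, since Hoxa3 was listed under 2 identifiers, and comprised 11 identifiers in the Hoxa cluster, 10 in Hoxb, 9 in Hoxc and 9 in Hoxd. RNA-Seq had been performed on mouse ES cells of strain 129/OLA grown in serum and LIF on gelatin without a feeder layer. WT ES cells were E14TG2a, an established line, and the other line carried a homozygous deletion of Cfp1 (Cfp1-/-). Cfp1, encoded by Cxxc1, binds unmethylated CpG dinucleotides and is a subunit of the Set1 complexes that methylate lysine 4 of histone H3. Both lines were left untreated or were treated with doxorubicin, a topoisomerase II inhibitor that breaks DNA, at 1 μM for 6 hours. The treatment protocol gives the dose as 1 μM, while the sample label reads 1 mM. Each of the 4 groups held 2 biological replicates with 2 sequencing runs each. Since each genotype was represented by 1 line, loss of Cfp1 and any other difference between the lines cannot be told apart.

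Hox genes encode homeodomain transcription factors that specify position along the body axis of the embryo. In mammals they lie in 4 clusters, and genes at the same place in different clusters are paralogs that share a group number. The low-numbered (anterior) genes at the 3′ end of a cluster are activated first and by retinoic acid and Wnt signals, and the high-numbered (posterior) genes later and further back in the embryo. In ES cells the clusters are held silent by Polycomb complexes while their CpG-rich promoters also carry H3K4me3, and complexes of the Mll family maintain the expression of those that are switched on.

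The Hox genes described whose level passed the test in at least 1 comparison were Hoxc13, Hoxb9 and Hoxd13. Hoxc13 and Hoxd13 are paralogs that moved in opposite directions in WT cells. Because Cfp1 recognises CpG dinucleotides, the 250 bases before the annotated start of both are shown on the gene's strand, 5′ to 3′, with every CpG in capitals. The build is NCBIM37, and the windows are chr15:102751284-102751533 (plus strand) for Hoxc13 and chr2:74506117-74506366 (plus) for Hoxd13.
Hoxc13: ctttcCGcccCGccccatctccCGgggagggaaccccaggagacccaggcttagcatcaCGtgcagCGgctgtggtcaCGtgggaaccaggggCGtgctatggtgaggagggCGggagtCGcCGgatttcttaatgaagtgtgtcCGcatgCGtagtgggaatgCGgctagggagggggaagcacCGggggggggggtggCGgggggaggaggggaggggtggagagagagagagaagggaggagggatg
Hoxd13: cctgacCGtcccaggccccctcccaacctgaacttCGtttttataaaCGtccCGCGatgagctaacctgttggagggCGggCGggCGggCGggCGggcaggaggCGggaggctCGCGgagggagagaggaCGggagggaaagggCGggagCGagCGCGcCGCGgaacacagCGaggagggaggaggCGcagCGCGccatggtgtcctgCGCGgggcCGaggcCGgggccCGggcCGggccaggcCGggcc

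The letters CG, which read the same on both strands, occurred 15 times in the Hoxc13 window and 31 times in that of Hoxd13. Of all 22371 gene windows that could be read, 32.9% held at least as many CpG as Hoxc13 and 5.84% as many as Hoxd13. Of these 2 windows, that of the upregulated paralog held fewer CpG than that of the downregulated one. Whether CpG number has a part in either response was not tested. Over the 39 Hox windows the median was 10 CpG, with a range of 2 to 41, against a median of 8 over all genes.

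The targeted gene was examined first. Cxxc1 had 1412 and 1117 counts in untreated WT cells and 616 and 829 in treated WT cells. The Cfp1-/- libraries had 4 and 3 counts without and 5 and 1 counts with doxorubicin, so each of the 8 libraries matched the genotype in its label, and Cxxc1 does not check the treatment. Total counts per biological replicate were 29422711 and 24158994 in untreated WT cells, 14880589 and 18551086 in treated WT cells, 23383421 and 25308913 in untreated Cfp1-/- cells, and 17866427 and 18458036 in treated Cfp1-/- cells. Treated libraries were therefore the shallower ones in both lines. The runs of replicate 1 of treated WT cells and of treated Cfp1-/- cells differed from each other beyond sampling noise (a chi-square of 9.61 and 42.9 per degree of freedom over genes with at least 50 counts, against 0.998 to 1.05 in the other 6 pairs of runs). Without the genes on chromosomes 19, X and Y the values were 9.62 and 15.6. In both replicates each run showed the raised Hoxc13 count, with 95 and 89 counts in the runs of treated WT replicate 1 and 168 and 113 in those of treated Cfp1-/- replicate 1.

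Most Hox genes were barely detected in any group. A gene was taken to be at the count floor in a group when both replicates had 3 counts or fewer. By this measure 17 of the 39 identifiers were at the floor in all 8 libraries, 5 in Hoxa, 4 in Hoxb, 4 in Hoxc and 4 in Hoxd. These were Hoxa4, Hoxa5, Hoxa6, Hoxa11 and 1 of the Hoxa3 identifiers, Hoxb3, Hoxb5, Hoxb6 and Hoxb8, Hoxc8, Hoxc9, Hoxc10 and Hoxc11, and Hoxd3, Hoxd4, Hoxd9 and Hoxd12. Along the clusters, 3 of 8 identifiers of the anterior groups 1 to 3, 8 of 15 of the central groups 4 to 8 and 6 of 16 of the posterior groups 9 to 13 were at the floor throughout. Only the floored Hoxa3 identifier had no count at all in any of the 8 libraries. On its strand, 99.9% of its exon bases were shared with other annotated genes. Reads on shared exons were not counted by the authors. Next most shared on the same strand were Hoxd4 (67.4% of exon bases), Hoxb8 (40.4%), the other Hoxa3 identifier (33.0%), Hoxd3 (29.8%) and Hoxb7 (26.2%). These shares come from a GENCODE annotation of the same build, not from the Ensembl release 67 used for counting. The counted gene ENSMUSG00000093412 is absent from it. Its span on the Hoxa strand (chr6:52113358-52163338) covers Hoxa4, Hoxa5 and Hoxa6, so their sharing is not known. Being at the floor says that the gene was not detectable at this depth, not that it was silent.

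By group, 23 identifiers were at the floor in untreated WT cells, 33 in treated WT cells, 27 in untreated and 27 in treated Cfp1-/- cells. After all counts were scaled to the total of the shallowest library the numbers were 29, 33, 29 and 27, so most of the gap between untreated and treated WT cells went with depth. The plot by cluster and paralog group shows the sparse pattern, in which a handful of cells stand out.

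**Figure D1:**
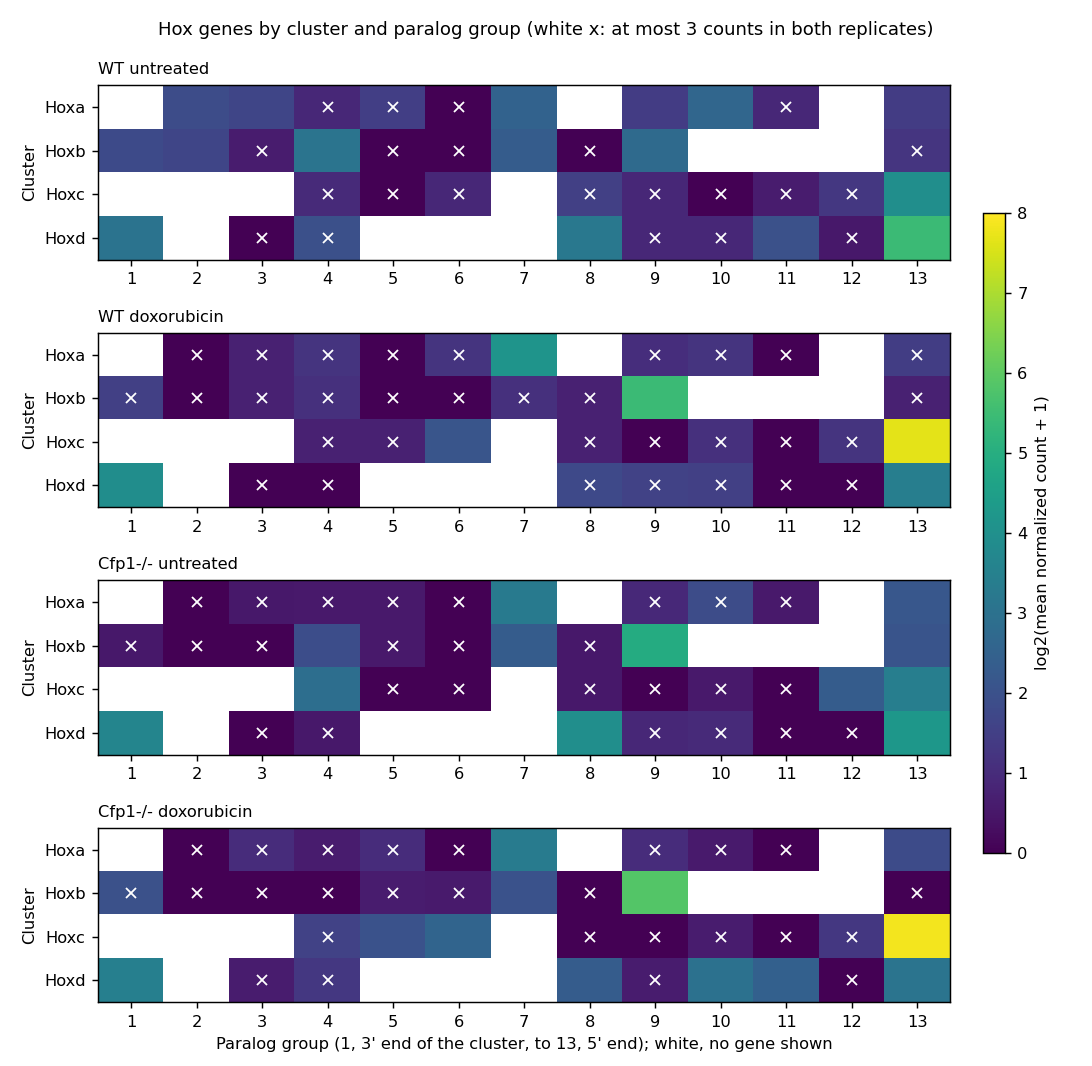
Mean normalized read count of each Hox gene, as log2(mean + 1) (colour), by cluster (rows) and paralog group (columns) in the 4 groups (panels, n = 2 biological replicates each); for Hoxa3 the higher of its 2 identifiers is drawn, and a white x marks genes with at most 3 counts in both replicates. The brightest cell is Hoxc13 in both treated groups, with means of 204 and 229 normalized counts.

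A further 17 identifiers rose above the floor in at least 1 library but had too few counts to be tested. The highest single count among them was 23, for Hoxd8, a gene of the thoracic region. Hoxd8 had 12 and 6 counts in untreated WT cells, 2 and 2 in treated WT cells, 23 and 9 in untreated Cfp1-/- cells and 4 and 4 in treated Cfp1-/- cells. In both lines the untreated counts lay above the treated ones, and no fold change is given for counts of this size. Hoxb4 behaved alike in WT cells, with 9 and 7 counts without and 1 and 1 with doxorubicin. Several such genes had their count in a single library. Hoxc4 had 13 counts in untreated Cfp1-/- replicate 1 and at most 3 elsewhere, and Hoxb13 had 7 counts in the same library and at most 2 elsewhere. Hoxa10 had 11 counts in untreated WT replicate 1 and at most 3 elsewhere. Conversely, Hoxd10 had 7 and 7 counts in treated Cfp1-/- cells and at most 2 in each of the other 6 libraries.

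The summed Hox signal was small and increased with doxorubicin in both lines. As CPM, counts scaled to a common library total, Hox genes had 5.51 and 5.05 in untreated WT cells and 18.5 and 13.8 in treated WT cells. The Cfp1-/- libraries had 6.71 and 4.90 CPM without and 24.3 and 15.1 with doxorubicin. The treated and untreated libraries did not overlap in either line, but the sum was carried by few genes. By mean normalized counts it went from 132 to 315 in WT and from 125 to 356 in Cfp1-/- cells. Hoxc13 alone went from 14.4 to 204 and from 9.79 to 229, so the rise lay mainly in this gene. Of the 1809 Hox counts over all 8 libraries, 47.3% belonged to Hoxc13 alone, a share set by the treated libraries. Hoxc13 took 64.6% of the Hox counts in treated WT and 64.4% in treated Cfp1-/- cells, but 10.9% and 7.83% in the untreated lines. In untreated WT cells Hoxd13 took more, with 31.0%. Genes of groups 9 to 13 took 78.2% of the counts, those of groups 1 to 3 took 6.91% and those of groups 4 to 8 took 14.9%, again shares that differed between treated and untreated libraries. Groups 9 to 13 took 61.6% of the counts in untreated and 84.6% in treated WT cells, and 59.1% and 87.5% in Cfp1-/- cells. Group 13, the most posterior one, held 1046 counts in all, which were 44.4% and 68.5% of the Hox counts in untreated and treated WT cells and 27.4% and 67.2% in Cfp1-/- cells.

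The 4 clusters moved differently. Summed normalized counts of Hoxc were 20.9 ± 1.61 (SD, n = 2) in untreated and 212 ± 53.7 in treated WT cells, and 21.1 ± 10.8 and 241 ± 83.5 in Cfp1-/- cells. Hoxc13 gave 68.9% of the Hoxc counts in untreated and 96.3% in treated WT cells, and 46.8% and 95.0% in Cfp1-/- cells. The Hoxb sum was 23.9 ± 0.136 and 48.9 ± 19.8 in untreated and treated WT cells and 40.7 ± 13.3 and 64.1 ± 30.7 in Cfp1-/- cells. Hoxb9 gave 25.5% of the Hoxb counts in untreated WT cells, where Hoxb4 gave 31.4%. It gave 87.7% in treated WT, 72.5% in untreated and 89.1% in treated Cfp1-/- cells. The Hoxd sum was lower after treatment in WT cells, at 65.9 ± 11.5 without and 30.0 ± 12.8 with doxorubicin, and was 45.9 ± 12.4 and 35.2 ± 0.735 in Cfp1-/- cells. Sums over the Hoxa genes described were 21.7 ± 17.4 and 24.2 ± 2.84 in WT cells and 17.4 ± 7.61 and 15.5 ± 8.35 in Cfp1-/- cells, so the treated and untreated means differed by less than the larger SD. In Cfp1-/- cells the Hoxb and the Hoxd means also differed by less than the larger SD. No test was made on these sums.

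Hoxc13, which drives the differentiation of hair and nails and is among the last Hox genes to be activated in the embryo, was upregulated by doxorubicin in both lines. Its normalized counts were 15.3 and 13.6 in untreated WT cells and 241 and 168 in treated WT cells. Cfp1-/- cells had 11.1 and 8.45 without and 287 and 172 with doxorubicin. All 4 treated libraries lay above all 4 untreated ones. The increase was 14.4-fold in WT cells (log2 fold change 3.85 ± 0.39 (SE), edgeR adjusted p = 5.1e-05) and 23.9-fold in Cfp1-/- cells (log2 fold change 4.58 ± 0.41, edgeR adjusted p = 2.76e-05). The Cfp1-/- response exceeded the WT response by 0.73 ± 0.56 on the log2 scale, which did not pass the test (edgeR adjusted p = 0.708). Hoxc13 lies at chr15:102751534-102759245 on the plus strand and shares no exon base with another gene of the GENCODE annotation on its strand.

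Hoxb9, a posterior gene of the thoracic and lumbar region, was upregulated in WT cells and was already higher in untreated Cfp1-/- cells. Normalized counts were 8.49 and 3.13 in untreated WT cells, 53.7 and 31.7 in treated WT cells, 33.4 and 25.4 in untreated Cfp1-/- cells, and 75.6 and 38.6 in treated Cfp1-/- cells. Thus the untreated WT libraries stood below the other 6. The response in WT cells was 7.17-fold (log2 fold change 2.84 ± 0.59, edgeR adjusted p = 0.00342), and 3.75 on the log2 scale without untreated WT replicate 1. In Cfp1-/- cells the log2 fold change was 1.00 ± 0.48 (edgeR adjusted p = 0.114), and when replicate number entered as a block it passed at 0.95 (edgeR adjusted p = 0.0352). The difference between the responses was -1.84 ± 0.77 on the log2 scale (edgeR unadjusted p = 0.0386, adjusted p = 0.440), and -2.80 without untreated WT replicate 1 (edgeR adjusted p = 0.335). Untreated Cfp1-/- cells had 4.91-fold more Hoxb9 than untreated WT cells (log2 fold change 2.30 ± 0.60, edgeR adjusted p = 0.0158), whereas treated cells of the lines differed by 0.45 ± 0.48 (edgeR adjusted p = 0.519), a value that turned to -0.13 without treated Cfp1-/- replicate 1. The untreated difference was 3.22 on the log2 scale without untreated WT replicate 1, and it lost the call without untreated WT replicate 2 (1.80, edgeR adjusted p = 0.0875) and without untreated Cfp1-/- replicate 1 (2.10, edgeR adjusted p = 0.0733).

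Hoxd13, which patterns the digits and the genital region, was downregulated in WT cells, opposite to its paralog Hoxc13. It had 29.7 and 55.2 normalized counts in untreated WT cells and 7.86 and 11.6 in treated WT cells. The Cfp1-/- libraries had 21.3 and 14.4 without and 9.19 and 5.78 with doxorubicin. Treated libraries were lower than untreated ones of the same line in both lines, without overlap. The decrease in WT cells was 4.11-fold (log2 fold change -2.04 ± 0.52, edgeR adjusted p = 0.00926). It lost the call without untreated WT replicate 2 (-1.55, edgeR adjusted p = 0.0651) or treated WT replicate 1 (-1.81, edgeR adjusted p = 0.057). In Cfp1-/- cells the log2 fold change of -1.20 ± 0.55 did not pass (edgeR adjusted p = 0.0990), nor did the difference between the responses (0.84 ± 0.78, edgeR adjusted p = 0.760). Untreated Cfp1-/- cells had lower values than untreated WT cells without overlap, but the difference was not called (log2 fold change -1.21 ± 0.47, edgeR adjusted p = 0.0707). It passed without untreated WT replicate 1 (-1.59, edgeR adjusted p = 0.0484) and was -0.71 without untreated WT replicate 2 (edgeR adjusted p = 0.391). The other members of paralog group 13, Hoxa13 of the limb and Hoxb13 of the tail and prostate, had at most 5 and 7 counts in any library.

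**Figure D2:**
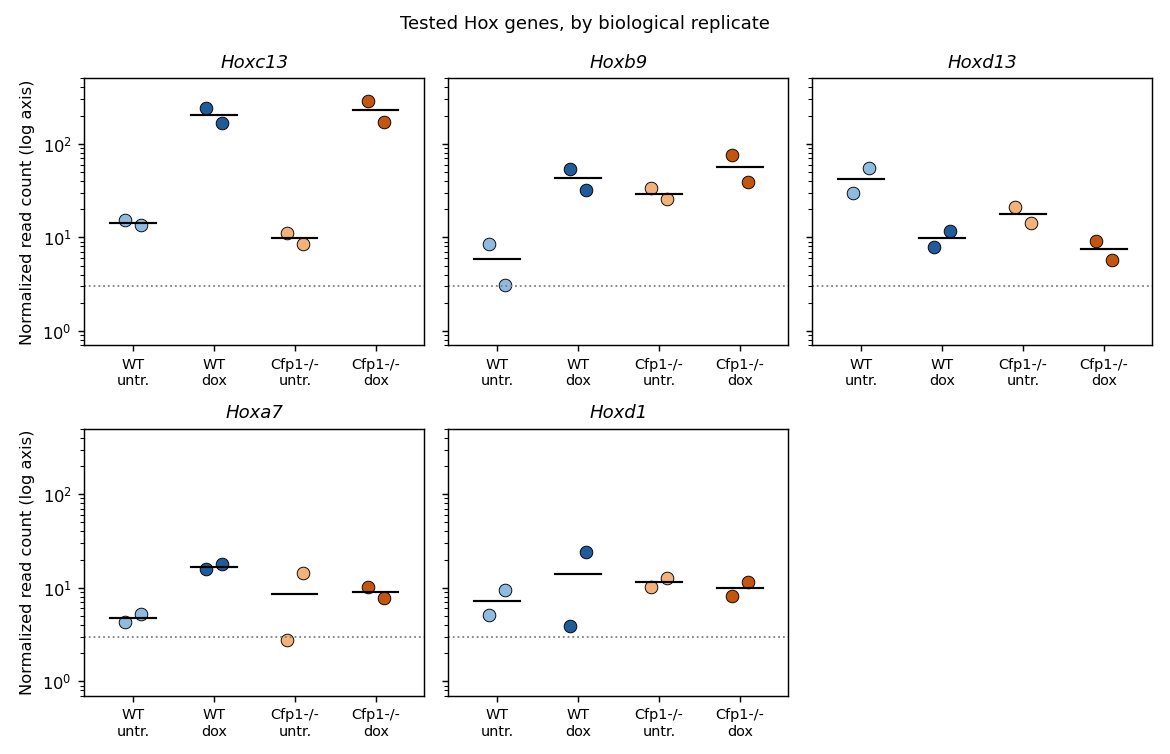
Normalized read count (log axis) of 5 Hox genes with enough counts to be tested, by group; points are the 2 biological replicates, bars their mean, and the dotted line marks 3 normalized counts. Hoxc13 lies between 168 and 287 in the 4 treated libraries and at 15.3 or less in the 4 untreated ones.

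Hoxa7 and Hoxd1 were tested without a call in any of the 5 comparisons. Hoxa7, a gene of the thoracic vertebrae, had 4.25 and 5.21 normalized counts in untreated and 15.7 and 18.0 in treated WT cells, which did not overlap. The Cfp1-/- values were 2.78 and 14.4 without and 10.2 and 7.71 with doxorubicin, and the treated pair lay inside the untreated range. The log2 fold change in WT cells was 1.86 ± 0.72 (edgeR adjusted p = 0.0545), and it passed in 5 of 16 alternatives. These were replicate number as a block (1.84, edgeR adjusted p = 0.0392), total count scaling, the fit on the groups compared alone, and the fits without either untreated Cfp1-/- replicate (edgeR adjusted p of 0.031, 0.0285, 0.0271 and 0.0296). Hoxd1, an anterior gene of paralog group 1, had 5.10 and 9.38 normalized counts in untreated WT cells and 3.93 and 24.3 in treated WT cells. It had 10.2 and 12.7 in untreated and 8.17 and 11.6 in treated Cfp1-/- cells, so treated and untreated values overlapped within each line, whereas the untreated values of the lines did not overlap. Hoxb1 of the same paralog group had at most 4 counts in any library.

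**Figure D3:**
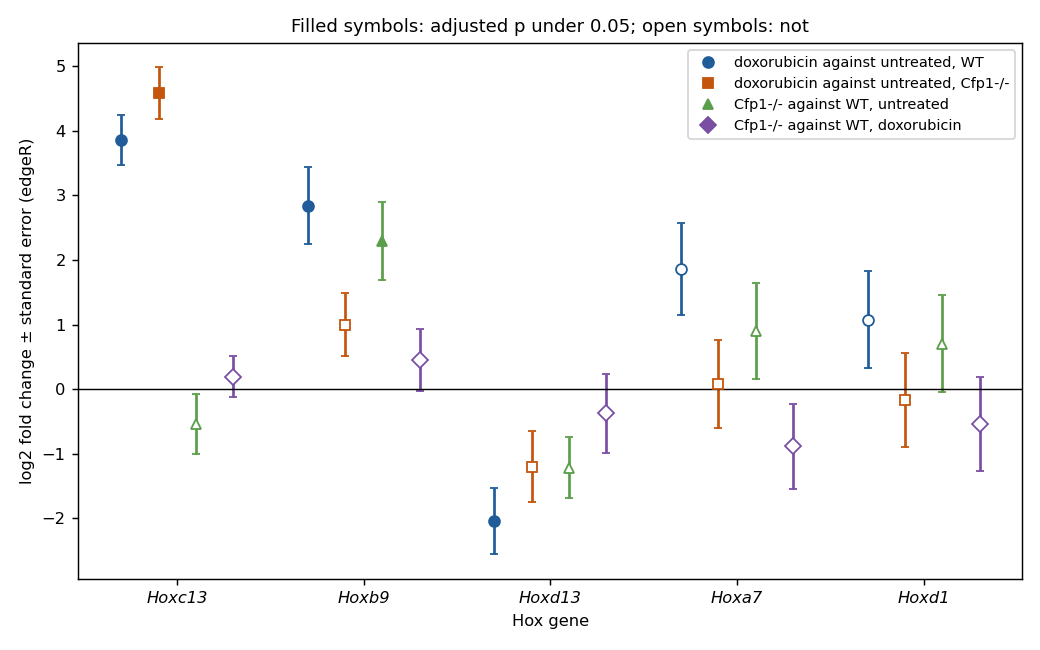
log2 fold change with its standard error (edgeR, 2 biological replicates per group) of 5 tested Hox genes in 4 comparisons; filled symbols passed an adjusted p under 0.05. The response to doxorubicin passed for Hoxc13 in both lines (3.85 and 4.58) and for Hoxb9 (2.84) and Hoxd13 (-2.04) in WT cells.

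Across all genes, doxorubicin changed a large part of the transcriptome, against which the Hox counts have to be read. In WT cells 2 of the 5 tested Hox genes described were upregulated, and 26.5% of the 15758 genes tested were. The 1 downregulated Hox gene stood beside 21.8% of genes tested. Of the 5 genes 1 was upregulated in Cfp1-/- cells, beside 27.8% of all genes, and 0 were downregulated, beside 21.0% (edgeR; 0 at an unadjusted p under 0.05 and 0 with DESeq2). The responses of the lines differed for no Hox gene with edgeR or DESeq2, and for 1 (Hoxb9) at an unadjusted p under 0.05 in edgeR and 0 in DESeq2, whereas 0.235% of all genes passed in edgeR. Without doxorubicin 1 Hox gene was higher in Cfp1-/- cells (17.9% of all genes) and 0 lower (16.1%; 1 at an unadjusted p under 0.05 in edgeR and 0 with DESeq2). With doxorubicin 0 were higher (15.1%; 0 at an unadjusted p under 0.05 in edgeR and 0 with DESeq2) and 0 were lower (10.8%; also 0 in both). With 5 genes, these counts do not set Hox genes apart from other genes. Scaling by total count in place of TMM shifted the median of all tested genes by 0.31 for the WT and 0.21 for the Cfp1-/- response (log2) and by 0.19 between untreated lines, and took the share of called genes that were higher from 54.9% to 75.7% and from 57.0% to 71.9%. For Cfp1-/- against WT it went from 52.7% to 70.5% without and from 58.3% to 69.2% with doxorubicin, and from 48.6% to 31.4% for the response difference. The direction of the called Hox changes was the same under both scalings.

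Relative to other genes, even the most abundant Hox transcripts were of modest level. Per kb of exon, Hoxc13 went from 5.86 to 83.1 normalized counts in WT cells and from 3.98 to 93.2 in Cfp1-/- cells. The median over tested genes was 92.3 and 104 in untreated and treated WT cells and 94.1 and 105 in untreated and treated Cfp1-/- cells. Treated Hoxc13 thus reached a level close to the middle of tested genes, above 45.3% of them in WT and 47.3% in Cfp1-/- cells. In untreated WT cells Hoxd13 (17.1 normalized counts per kb) was the highest of the 5 tested Hox genes described, followed by Hoxc13, Hoxd1 (3.89), Hoxb9 (2.26) and Hoxa7 (1.64). In treated WT cells the order was Hoxc13, Hoxb9 (16.6), Hoxd1 (7.57), Hoxa7 (5.85) and Hoxd13 (3.92), with Hoxd13 going from first to last. The replicate ranges of Hoxd1 and Hoxb9 overlapped in untreated WT cells, as did those of Hoxb9 and Hoxa7, and in treated WT cells the range of Hoxd1 overlapped those of Hoxb9, Hoxa7 and Hoxd13. For comparison, the pluripotency gene Pou5f1 had 6770 normalized counts per kb in untreated WT cells.

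Genes that flank the clusters were examined within 200 kb. Around and within Hoxb, 8 of 9 tested neighbours were higher in untreated Cfp1-/- than in untreated WT cells, as was Hoxb9, against 17.9% of all genes. They were Gip, Snf8, Ube2z, Atp5g1, Calcoco2, Ttll6, Gm53 and Skap1, and the ninth, Igf2bp1, was not called (log2 fold change -0.19 ± 0.19, edgeR adjusted p = 0.487). Without untreated WT replicate 2 the number was 5. In treated cells 5 of the 9 were higher in Cfp1-/- cells, against 15.1% of all genes. Calcoco2, which encodes an autophagy receptor, had 294 and 164 normalized counts in untreated WT and 5090 and 2910 in untreated Cfp1-/- cells (log2 fold change 4.15 ± 0.42, edgeR adjusted p = 0.000202). It did not pass for doxorubicin in either line (-0.05 ± 0.40 and -0.76 ± 0.37, edgeR adjusted p of 0.925 and 0.115). Gip, an incretin hormone gene, had 2 and 1 counts in untreated WT cells and 40 and 21 in untreated Cfp1-/- cells. Atp5g1, a subunit of the mitochondrial ATP synthase, differed by 1.46 ± 0.19, Snf8 of the endosomal sorting machinery by 0.91 ± 0.14 and Ube2z, a ubiquitin-conjugating enzyme, by 0.57 ± 0.16 on the log2 scale. Igf2bp1, an RNA-binding protein gene, fell with doxorubicin, with log2 fold changes of -1.19 ± 0.20 in WT and -1.49 ± 0.20 in Cfp1-/- cells (edgeR adjusted p of 0.000892 and 0.000271), as did Ube2z with -0.58 ± 0.16 and -0.57 ± 0.16 (edgeR adjusted p of 0.0132 and 0.0144).

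Of the 9 tested Hoxb neighbours, 2 rose and 2 fell with doxorubicin in WT cells, beside 26.5% and 21.8% of all tested genes. In Cfp1-/- cells 1 rose and 2 fell, beside 27.8% and 21.0%. The 2 that rose in WT cells, Ttll6 and Gm53, are the tested neighbours that start nearest upstream of Hoxb9. Both were also higher in untreated Cfp1-/- cells, as 8 of the 9 were, and Hoxb9 showed both changes. Ttll6, a tubulin polyglutamylase, starts 138 kb before Hoxb9. It had 60.3 and 46.9 normalized counts in untreated WT cells, 1620 and 1150 in treated WT cells, 775 and 337 in untreated Cfp1-/- cells and 2010 and 2230 in treated Cfp1-/- cells. Its log2 fold change was 4.73 ± 0.40 for the WT response (edgeR adjusted p = 2.16e-05), 1.97 ± 0.34 for the Cfp1-/- response (edgeR adjusted p = 0.0011) and 3.39 ± 0.39 between untreated lines (edgeR adjusted p = 0.000353). Gm53, a predicted gene inside the cluster that starts 20.4 kb before Hoxb9 on the same strand, had 103 and 41.7 normalized counts in untreated WT cells and 473 and 187 in treated WT cells. It had 439 and 219 in untreated and 613 and 304 in treated Cfp1-/- cells, so its untreated WT libraries were again the lowest. Gm53 changed by 2.21 ± 0.59 in WT cells (edgeR adjusted p = 0.0115) and by 0.52 ± 0.54 in Cfp1-/- cells (edgeR adjusted p = 0.454). The WT response and the untreated difference both use the untreated WT libraries, so the likeness of their values is not independent. Between Gm53 and Ttll6 lies Hoxb13, which had 2 and 1 counts in untreated WT cells and 1 and 0 in treated WT cells.

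**Figure D4:**
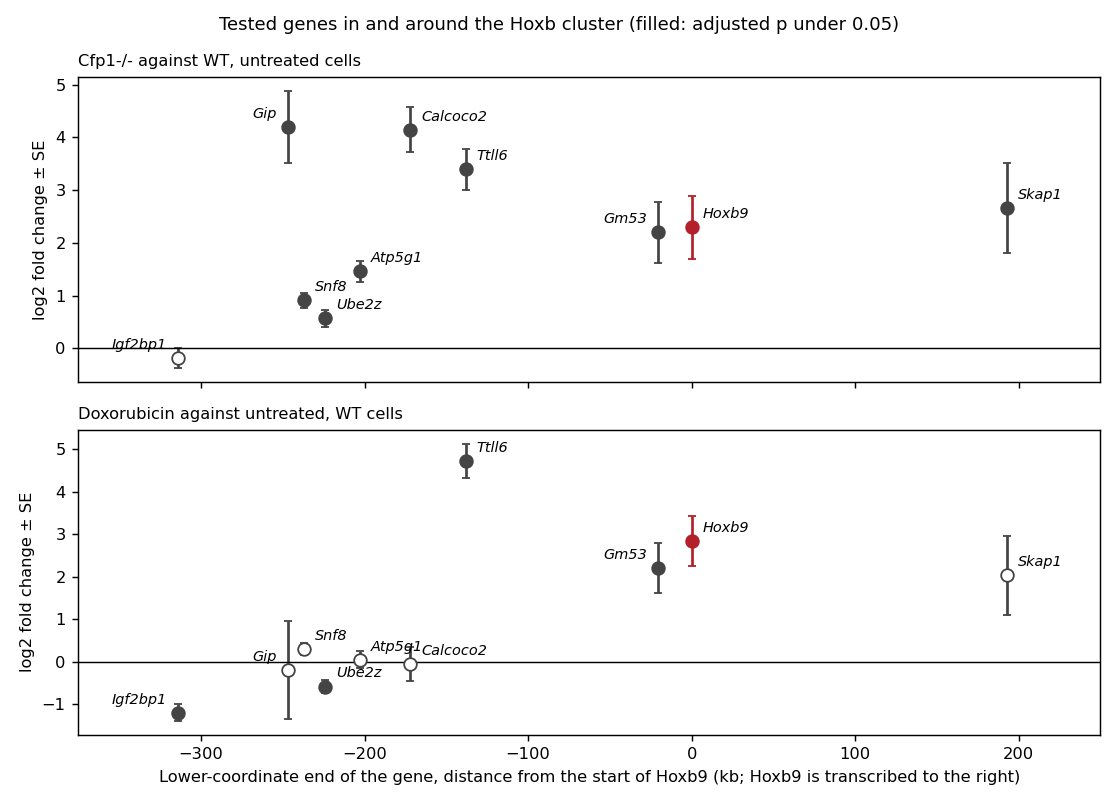
log2 fold change with its standard error (edgeR) of the tested genes within 200 kb of the Hoxb cluster, by the distance of their lower-coordinate end from the start of Hoxb9 (kb), for Cfp1-/- against WT in untreated cells (top) and doxorubicin against untreated in WT cells (bottom); filled symbols passed an adjusted p under 0.05. In the top panel all genes but Igf2bp1 are above 0; the value for Gip rests on 2 and 1 WT counts.

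The other clusters had fewer tested neighbours. Around Hoxc, 3 of 4 neighbours were tested, of which Calcoco1, a transcriptional coactivator, was higher in untreated Cfp1-/- cells by 0.56 ± 0.19 on the log2 scale (edgeR adjusted p = 0.0479). Cbx5, which encodes heterochromatin protein HP1α, was lower by 0.70 ± 0.13 (log2 fold change -0.70, edgeR adjusted p = 0.00339). Cbx5 was also lower in treated Cfp1-/- than in treated WT cells (log2 fold change -0.62 ± 0.13, edgeR adjusted p = 0.00854) and fell with doxorubicin in WT cells (-0.35 ± 0.13, edgeR adjusted p = 0.0486). Of all tested genes 17.9% were higher and 16.1% lower in untreated Cfp1-/- cells. The share lower in treated Cfp1-/- cells was 10.8%, and 21.8% fell in WT cells. Around Hoxd, Lnp and Mtx2 were tested and both were downregulated, Lnp by -0.82 ± 0.14 and -0.37 ± 0.14 in WT and Cfp1-/- cells and Mtx2 by -0.53 ± 0.16 and -0.66 ± 0.16 on the log2 scale (edgeR adjusted p of 0.000965, 0.0449, 0.0208 and 0.0078), beside 21.8% and 21.0% of all tested genes that fell in WT and Cfp1-/- cells. Skap2 was the only tested neighbour of Hoxa and was called in none of the 5 comparisons. Evx1 and Evx2, homeobox genes next to Hoxa13 and Hoxd13, had at most 6 and 5 counts in any library and were not tested.

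Many genes that silence or maintain Hox expression were downregulated by doxorubicin. Of 20 Polycomb genes, 14 fell and 1 rose in WT cells and 11 fell and 1 rose in Cfp1-/- cells (median log2 fold change -0.77 and -0.51, against 0.06 and 0.01 over all tested genes). Of all tested genes 26.5% rose and 21.8% fell in WT cells and 27.8% rose and 21.0% fell in Cfp1-/- cells. In WT cells the largest changes were in Cbx8 of complex PRC1 (-2.11), Jarid2 (-1.76) and Suz12 (-1.37) of complex PRC2, and the PRC1 gene Phc2, which rose by 1.76. The Cfp1-/- response of Jarid2, Suz12 and Phc2 was -1.30, -1.31 and 1.61, while Cbx8 (-0.49) did not pass. Under total count scaling 8 fell in WT and 7 in Cfp1-/- cells. The count was 9 in WT cells without untreated WT replicate 1, and 7 and 4 in Cfp1-/- cells without untreated replicate 1 or treated replicate 2 of that line. Of 15 genes of the Mll complexes and their partners, 8 fell in each line and 0 rose (edgeR; at an unadjusted p under 0.05 1 rose in WT and 0 in Cfp1-/- cells, and with DESeq2 0 rose). Their median log2 fold change was -0.51 and -0.58, and the share of all tested genes that fell was 21.8% and 21.0%. The largest called changes in WT cells were in Aff4 of the elongation complex that Mll fusions recruit (-1.68), Kdm6a, an H3K27 demethylase (-1.14), Psip1, which tethers Mll to chromatin (-0.95), and Wdr5, a core subunit (-0.87). Under total count scaling 5 fell and 2 rose in WT cells and 6 fell in Cfp1-/- cells, and 5 fell in WT cells without untreated WT replicate 1 and in Cfp1-/- cells without untreated Cfp1-/- replicate 2. No gene of either list passed the edgeR test of the response difference, and 1 of each list had an unadjusted p under 0.05. With DESeq2 also 0 passed and 1 of each had an unadjusted p under 0.05.

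**Figure D5:**
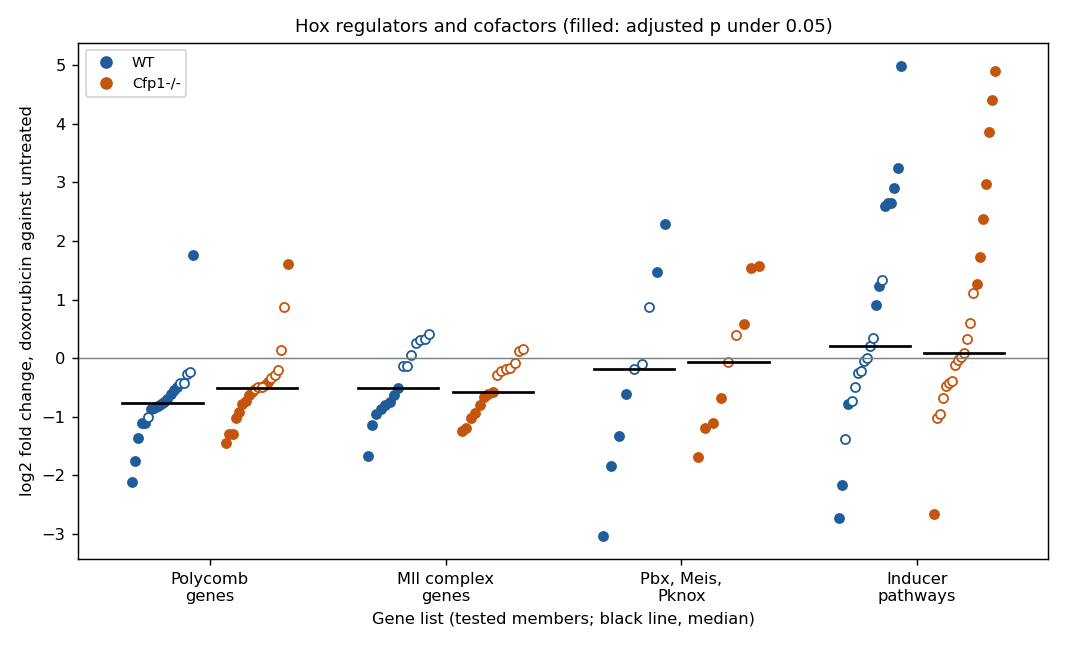
log2 fold change by doxorubicin (edgeR) of the tested genes of 4 lists in WT (blue) and Cfp1-/- cells (orange); each point is a gene, filled where its adjusted p was under 0.05, and the black line is the median. For Polycomb genes the medians are -0.77 and -0.51, and Phc2 is the filled point above 0.

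The Pbx, Meis and Pknox proteins are homeodomain partners with which Hox proteins bind DNA. Of 9 such genes, all tested, 2 rose and 4 fell in WT cells and 3 rose and 4 fell in Cfp1-/- cells, with median log2 fold changes of -0.18 and -0.07. Among all tested genes the shares that rose were 26.5% and 27.8%, and those that fell 21.8% and 21.0%. Without treated Cfp1-/- replicate 2 the 4 that fell in Cfp1-/- cells became 2. Meis2 (-3.04) and Meis1 (-1.85) fell most in WT cells, and Pknox2 (2.30) and Pbx4 (1.47) rose. In the other line these 4 changed by -1.69, -1.20, 1.57 and 1.54, each past the test. Meis1 and Meis2 were higher in untreated Cfp1-/- than in untreated WT cells, by 1.78 and 1.18.

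Among 26 genes of the retinoic acid and Wnt pathways that induce Hox genes and of early Hox regulators, 21 were tested, and 8 rose and 3 fell in WT cells and 7 rose and 1 fell in Cfp1-/- cells (medians 0.21 and 0.09), beside 26.5% and 21.8% of all tested genes in WT and 27.8% and 21.0% in Cfp1-/- cells. Cyp26b1, which degrades retinoic acid, rose by 4.99 in WT and 4.91 in Cfp1-/- cells, while Cyp26a1 with the same function fell (-2.74 and -2.67). Wnt3a, a ligand needed for posterior development, rose by 3.24 and 4.40, and Stra6, the receptor for retinol uptake, by 2.90 and 1.72. Aldh1a1 and Aldh1a3, which make retinoic acid, rose by 2.66 and 2.65 in WT and by 2.37 and 2.98 in Cfp1-/- cells. Aldh1a2, the other enzyme of this kind in the list, was not called (log2 fold change -0.21 ± 0.37 and -0.04 ± 0.34, edgeR adjusted p of 0.659 and 0.934). The number that fell depended on the fit, from 2 to 6 in WT and from 1 to 6 in Cfp1-/- cells over 17 alternatives. In WT cells it was 6 without a filter, 5 with replicate number as a block and 5 without untreated WT replicate 1. In Cfp1-/- cells it was 6 with the block, and 3 in the fit on the groups alone and without the second runs of both treated replicates 1. It was 2 there with DESeq2, without a filter, and without untreated WT replicate 1, untreated WT replicate 2 or untreated Cfp1-/- replicate 2.

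The labelled cell type was checked against its markers, whose counts are to be read beside the shares of all tested genes that rose and fell (26.5% and 21.8% in WT, 27.8% and 21.0% in Cfp1-/- cells). All 10 ES cell markers were tested, with summed normalized counts of 97900 and 71700 in untreated and 37800 and 27600 in treated WT cells, and of 85100 and 84100 in untreated and 40300 and 32400 in treated Cfp1-/- cells. Of these, 9 fell in WT and 8 in Cfp1-/- cells (medians -1.38 and -1.33), and 7 and 6 with DESeq2. By the mean over all 8 libraries, used for every list here, the most abundant was Tdgf1. In treated cells Pou5f1 was higher, with mean normalized counts of 11400 against 4880 in WT and 7180 against 5750 in Cfp1-/- cells. Because these are bulk samples, fewer cells of a type and less RNA per cell cannot be told apart. Markers of differentiated cells moved in both directions. Of the tested neural progenitor markers (6 of 9 measured) 1 rose and 1 fell in WT and 2 rose and 2 fell in Cfp1-/- cells. Tubb3 was the most abundant over all 8 libraries, but in untreated WT cells Pax6 was higher (means of 1250 and 933). Neural sums were 2850 and 1760 against 1640 and 1620 in untreated and treated WT cells. In Cfp1-/- cells they were 2440 and 2780 against 1950 and 1720. Of the mesoderm markers (9 tested of 10, Msgn1 at the floor) 3 rose and 2 fell in each line. With DESeq2 2 rose and 3 fell in WT and 2 rose and 2 fell in Cfp1-/- cells. Kdr was the most abundant over all 8 libraries. Mean normalized counts of Eomes and Kdr were 142 and 142 in untreated WT and 59.2 and 44.7 in treated WT cells. Mesoderm sums were 368 and 482 against 203 and 262 in WT and 629 and 334 against 335 and 272 in Cfp1-/- cells.

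Of the endoderm markers (8 tested of 10, Ttr at the floor) 2 rose and 1 fell in WT and 4 rose and 1 fell in Cfp1-/- cells. With DESeq2 the Cfp1-/- balance turned, since 1 rose and 2 fell. Lama1 was the most abundant endoderm marker. The sums of the list were 2150 and 1450 against 1280 and 1260 in WT cells. In Cfp1-/- cells they were 9740 and 9840 against 4760 and 5240. Of the trophoblast markers 6 were tested of 9 measured, and Prl3d1 and Tpbpa were at 0 in all libraries. In WT cells 2 rose, and in Cfp1-/- cells 2 rose and 1 fell. Krt18 was the most abundant over all 8 libraries, but in treated Cfp1-/- cells Krt7 was higher (means of 330 and 131). Trophoblast sums were 1080 and 2140 against 954 and 1890 in WT and 587 and 401 against 729 and 684 in Cfp1-/- cells. The fibroblast markers were the list whose sum was higher after treatment in both lines, from 306 and 337 to 824 and 765 in WT and from 200 and 268 to 769 and 840 in Cfp1-/- cells. Of its 8 tested genes of 10, 3 rose in WT and 4 in Cfp1-/- cells, and Lum was at the floor. With DESeq2 2 rose in WT and 3 in Cfp1-/- cells. With edgeR 0 fell, also at an unadjusted p under 0.05, and 0 fell with DESeq2. Pdgfra was the most abundant over all 8 libraries, but Col1a1 was higher in WT cells, both untreated and treated. The sum was carried by few members, since mean normalized counts of Col1a1 went from 73.1 to 283 and those of the growth factor receptor gene Pdgfra from 27.6 to 216 in WT cells, and from 9.02 to 221 and from 154 to 449 in Cfp1-/- cells. Col3a1, Dcn, Col1a2 and Postn had log2 fold changes of -0.81, -0.57, -0.32 and -0.18 in WT cells, none of them called. Median log2 fold changes in WT and Cfp1-/- cells were 0.75 and 0.26 for the neural, 0.66 and 0.71 for the mesoderm, 0.21 and 0.99 for the endoderm, 1.37 and 0.81 for the trophoblast and 0.41 and 1.03 for the fibroblast list. Thus the median was above 0 while the mean of the sums was lower after treatment for the neural, mesoderm and endoderm lists in both lines and for the trophoblast list in WT cells. The part of any of these markers in the Hox changes was not tested.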

How the data were processed

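RNA-Seq of ribosomal RNA-depleted total RNA was analysed for 16 samples, which are 2 runs of each of 8 biological replicates. The authors aligned reads to NCBIm37 with STAR and counted those on exons of Ensembl release 67 genes with HTSeq (stranded, union mode), and deposited raw counts per run with no normalization. The authors also deposited normalized counts per biological replicate, a signal in which the count over both runs is divided by the size factor from DESeq. Union mode leaves out reads on overlapping genes.

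Here runs were summed (n = 2 per group) and tested with edgeR 4.0.16 (filterByExpr, TMM, 1 coefficient per group over all 8 replicates, glmQLFit, glmQLFTest) in R 4.3.3. Calls needed a Benjamini-Hochberg adjusted p under 0.05 over the 15758 genes tested, and 6617 were filtered out. The call uses no limit on fold change or level, and SEs were taken as the log2 fold change over the root of F. The labels do not say that replicates were separate cultures, so p-values measure only the spread between these samples. A gene with 3 counts or fewer was at the floor. Intervals other than standard errors were not computed. The method was tested on simulated data, and the outcome of that test is not reported here. The members, lists and tests were chosen with earlier results of these data known. Results of 1 Hox gene and 1 sequence window are not reported here, and Hox sums and counts leave that gene out. The other Hox genes are accounted for, with full values for those called in any comparison or highest per kb in a cluster; neighbours are named where called, and up to 4 members per list by the size of a called change in WT cells, others (Aldh1a1, Aldh1a3 and genes with single-library counts) having been chosen after their values were seen. Sox1 and Tfap2c were not analysed here.

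Alternatives were DESeq2's size factors, total count scaling, DESeq2 1.42.0 (Wald test), no filter, the replicate number as a block, fits on the groups compared alone, first runs alone, other floors, the study's limits of a 2.5-fold change and a mean of 200 normalized counts, and each replicate left out. Fits without the deviating second runs, and the counts of neighbours and lists under each setting, were added after seeing the data. Replicates with the same number deviated together, with correlations of 0.14 to 0.451 across 6 comparisons of groups. They were taken as pairing, although the sources used here do not say what they share. The main fit and its shares of all genes leave this pairing out, and the block was an alternative. Over all genes the response difference was called higher for 18 and lower for 19 in the main fit. With the block these numbers were 108 and 135.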

Additional observations from a re-analysis of the deposited data

How the results depend on the processing

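The Hoxc13 responses kept their direction and their call in all 17 alternative fits, from 3.28 to 4.17 in WT and from 4.14 to 4.91 in Cfp1-/- cells (log2), but did not pass the study's limits. The number of Hox genes called for the WT response was 3. It went to 0 under the study's limits, since no Hox gene that passed had a mean of 200 normalized counts over the libraries compared, was 4 under total count scaling, with the block and in the fit on the groups alone (adding Hoxa7), and lay between 2 and 4 when each replicate was left out. For the Cfp1-/- response it was 1, and became 2 without a filter (adding Hoxc6), 2 with the replicate block (adding Hoxb9), 0 under the study's limits, and 1 to 2 with a replicate left out (adding Hoxd8). For untreated Cfp1-/- against WT it was 1, with 0 under the study's limits and 0 to 2 with a replicate left out (adding Hoxd13 or Hoxc4). For treated Cfp1-/- against WT it was 0 in all alternatives. Where a replicate was left out, the lone library of its group was assumed to vary like the others.

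The response difference gave 0 calls in all alternatives. The number at the floor throughout was 17, and 9 with a floor of 1 count, 31 with 10 counts and 26 in first runs alone, which hold fewer counts. Beyond Hoxb9 in Cfp1-/- cells and Hoxa7 in WT cells the replicate block changed no call of a Hox gene. The Hoxb neighbours higher in untreated Cfp1-/- cells numbered 8, and 5 to 8 with a replicate left out. Over the alternatives, 8 to 16 Polycomb genes and 5 to 8 Mll genes fell in WT cells and 4 to 12 and 5 to 8 in Cfp1-/- cells. Of the retinoic acid, Wnt and early regulator genes 2 to 6 fell in WT and 1 to 6 in Cfp1-/- cells. Some log2 fold changes of Hox genes that passed no test turned in sign with a replicate left out. Treated Cfp1-/- against WT ranged from -0.13 to 0.87 for Hoxb9, -0.24 to 0.52 for Hoxc13 and -1.27 to 1.33 for Hoxd1. Hoxd1 ranged from -0.80 to 1.80 for the WT response, -0.43 to 0.036 for the Cfp1-/- response (0.046 under total count scaling) and -1.98 to 0.62 for the difference. Hoxa7 ranged from -0.64 to 1.67 for the Cfp1-/- response (-0.12 without the second run of treated Cfp1-/- replicate 1 or of both treated replicates 1) and from -0.70 to 1.63 between untreated lines. The cause was not tested. With 2 replicates and few counts, changes of most Hox genes were not detectable at this depth.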
